A study of Mus musculus with 12 samples.

Results

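Transcripts of the heterotrimeric G proteins and of the RGS proteins (regulators of G protein signaling) were followed in poly(A) RNA of mouse cerebellar cortex from wild-type F1 hybrid C57BL6J/FVB males of 12 weeks on 3 diets. Mice were fed ad libitum (AL), kept on dietary restriction (DR) or given a ketogenic diet (KD), with 4 libraries per diet. AL and DR mice were killed in the same window early in the dark period. DR mice normally received their daily food just before that period and were killed without that meal, so that the DR samples also followed a fast, and the AL and DR samples were picked for RNA quality. The composition of KD and the time at which KD mice were killed are not given in the sources used here. Between DR and AL, restriction and the missed meal cannot be told apart, and in comparisons with KD neither can a difference in killing time. Members were the protein-coding genes of mouse named Gna, Gnb, Gng or Rgs with the usual subtype letters and numbers, with Rgs2 and Rgs8 left out. This rule, which used no measured value, gave 52 of the 54752 genes of the table (21921 of them protein coding): 16 alpha, 5 beta and 12 gamma subunit genes and 19 RGS genes.

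A heterotrimeric G protein couples a receptor in the plasma membrane to enzymes and ion channels inside the cell. The activated receptor makes the alpha subunit exchange GDP for GTP, alpha separates from the paired beta and gamma subunits, and both sides signal until alpha hydrolyses its GTP, a step that RGS proteins speed up. Alpha subunits of the Gs class stimulate adenylyl cyclases, those of the Gi/o class inhibit them, those of the Gq class activate phospholipase C beta, and those of the G12/13 class act on the actin cytoskeleton. In cerebellar Purkinje cells the Gq pathway carries signals of metabotropic glutamate receptors to the calcium store.

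The libraries held from 31712084 to 40798644 counted reads, and no pair of libraries of a diet was alike within counting noise. Levels are given as CPM, the read count scaled to a common library size, or, where genes are compared with each other, as TPM, for which the counts were also divided by the exonic length of the gene. The tissue label was checked against marker genes. The 9 Purkinje cell markers summed to 7387 to 9209 CPM per library and the 8 granule cell markers to 5833 to 6351 CPM, whereas the 3 markers of the cerebellar nuclei summed to 2.81 to 4.71 CPM. In RNA of whole tissue, fewer cells of a type and less RNA per cell cannot be told apart.

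A few genes led each class of the family. Averaged over the 12 libraries, 8 members exceeded 100 TPM, 20 lay between 10 and 100 TPM, 9 between 1 and 10 TPM, and 15 at 1 TPM or less. Of the 52 members, 41 had enough reads to be tested in every comparison.

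**Figure D1:**
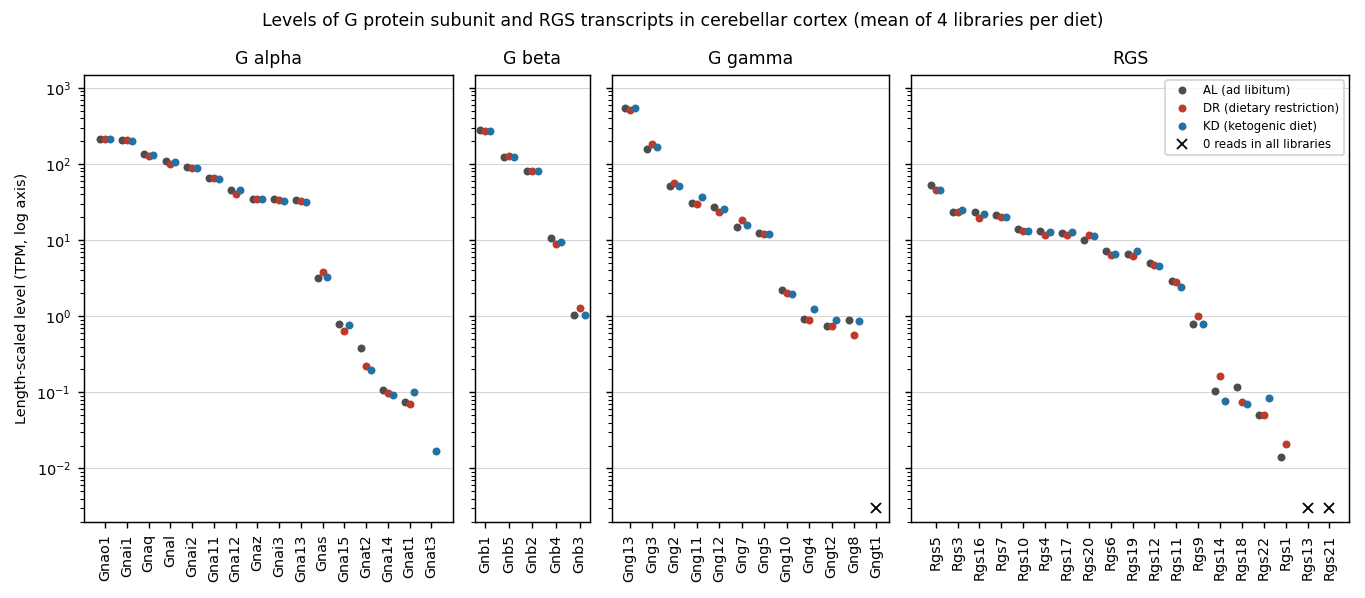
Length-scaled level (TPM, logarithmic axis) of the 52 members, by class and in order of level within it. Each dot is the mean of the 4 libraries of a diet, a diet with no dot had 0 reads, and a cross marks a gene with 0 reads in all 12 libraries; Gng13, Gnb1, Gnao1 and Rgs5 led their classes and the dots of the 3 diets lay close to each other for the abundant genes.

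Among alpha subunits, Gnao1 and Gnai1 of the Gi/o class stood highest in TPM. Gnao1, which encodes the G alpha-o subunit, averaged 211 TPM with a range of 196 to 220 TPM over libraries, and Gnai1 averaged 205 TPM with a range of 194 to 227 TPM, so that their levels overlapped. They made up 22.1% and 21.4% of the summed length-scaled level of alpha subunits. Of the summed CPM, where the longer exonic length of Gnao1 is not divided out, Gnao1 gave 41.4%, Gnaq 14.5% and Gnai1 11.4%. In CPM, Gnao1 was at 670, 669, 649 and 650 CPM on AL, at 618, 654, 665 and 654 CPM on DR and at 638, 660.5, 678 and 674 CPM on KD, and the libraries of the 3 diets overlapped.

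Gnaq followed with 132 TPM and encodes the G alpha-q subunit. It was at 231, 240.0, 235.5 and 232 CPM on AL, at 214, 231, 222 and 216 CPM on DR, and at 241.5, 227, 239 and 228 CPM on KD. The 4 DR libraries lay below the 4 AL libraries, but the log2 fold change of -0.09 (SE 0.04) was not called at an adjusted p of 0.268. Gna11, the other abundant gene of the Gq class, was at 64.7 TPM. Gnai2 (89.7 TPM), Gnaz (34.8 TPM) and Gnai3 (34.0 TPM) completed the Gi/o class.

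Of the Gs class, Gnal, which encodes the G alpha-olf subunit known from olfactory neurons and striatum, had 105 TPM. This value uses the exonic length of 5761 bases given with the counts. GENCODE vM21 lists 11172 exonic bases for Gnal, with which its TPM would be lower, so its place above 100 TPM depends on the annotation. Gnal was at 174, 172, 181 and 174 CPM on AL, at 163, 148, 162 and 168 CPM on DR, and at 168, 179, 176 and 178 CPM on KD. The DR libraries lay below those of both other diets, with log2 fold changes of -0.13 (SE 0.05, adjusted p = 0.153) against AL and -0.13 (SE 0.05, adjusted p = 0.125) against KD, neither of them called. Gnas, which encodes the ubiquitous G alpha-s subunit, was listed at 3.46 TPM and 8.23 to 14.9 CPM. This low count is uncertain, because exons of Gm20721, annotated on the opposite strand, cover 96.4% of the coding bases of the G alpha-s transcript Gnas-202, and Gm20721 itself had 3 to 10 reads per library. The kit did not keep the strand, and a read that lies in exons of 2 genes is by default assigned to neither by the counting tool. The part of this overlap in the Gnas count was not tested.

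Of the beta subunits, Gnb1 gave 56.0% of the summed length-scaled level and averaged 276 TPM. It was at 337, 327, 340 and 336 CPM on AL, at 335, 319, 324 and 325 CPM on DR, and at 330, 327, 334 and 333 CPM on KD. Gnb5, the atypical beta subunit that pairs with RGS proteins of the R7 subfamily, was second with 124 TPM, followed by Gnb2 (81.2 TPM), Gnb4 (9.64 TPM) and Gnb3 (1.11 TPM).

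Of the gamma subunits, Gng13 averaged 537 TPM and gave 63.0% of the summed length-scaled level, but 34.8% of the summed CPM, since its exonic length of 773 bases is short. Gng13 was at 118, 116, 111 and 131 CPM on AL, at 123, 92.2, 109 and 119 CPM on DR, and at 126, 122, 108 and 126 CPM on KD, so that the diets overlapped. Exons of Chtf18 on the opposite strand cover 51.6% of its exonic bases, so the Gng13 values are uncertain. Chtf18 averaged 4.70 CPM in AL libraries against 6.94 CPM in DR libraries and was itself called higher on DR (log2 fold change 0.56, adjusted p = 0.0116). The part of Chtf18 in the Gng13 count was not tested. Gng3, a gamma subunit of neurons, was next with 170 TPM, and Gng2 had 53.0 TPM.

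The RGS members, which leave out Rgs2 and Rgs8, were expressed at lower levels than the leading subunits. The highest, Rgs5 of the R4 subfamily, which is known as a marker of pericytes, averaged 48.0 TPM. The R4 gene Rgs3 (24.0 TPM) was second per length but first in CPM. It gave 25.8% of the summed CPM of the RGS members against 21.7% for Rgs5. The leading gene of the R7 subfamily was Rgs7 (20.5 TPM), that of the R12 subfamily Rgs10 (13.5 TPM), and that of the RZ subfamily Rgs17 (12.3 TPM). Rgs7 was at 36.1, 37.2, 37.25 and 34.4 CPM on AL, at 35.9, 30.9, 33.85 and 34.3 CPM on DR, and at 34.6, 31.7, 34.6 and 35.6 CPM on KD. Rgs10 was at 8.37, 6.94, 5.08 and 6.62 CPM on AL, at 7.22, 6.42, 5.98 and 5.69 CPM on DR, and at 6.85, 5.76, 6.34 and 6.59 CPM on KD. Rgs17 was at 28.3, 30.8, 29.3 and 27.9 CPM on AL, at 28.9, 26.6, 25.95 and 27.0 CPM on DR, and at 31.9, 28.0, 30.8 and 28.6 CPM on KD. The diets overlapped for each of these 3 leading genes. Rgs6 (6.71 TPM), Rgs19 (6.68 TPM), Rgs12 (4.77 TPM) and Rgs11 (2.72 TPM) were lower still. Among the subunits not named above, Gng5 averaged 12.1 TPM, Gng10 2.06 TPM, Gng4 1.03 TPM, Gngt2 (the cone gamma subunit) 0.795 TPM and Gng8 0.777 TPM, and 72.0% of the exonic bases of Gng10 lie in exons of Gm20503 on the same strand, so its count is uncertain.

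The 11 members with too few reads for the main tests included genes known from retina and taste cells. The 3 transducin-type alpha genes Gnat1 (rods), Gnat2 (cones) and Gnat3 (taste cells) had 30, 97 and 1 reads in the 12 libraries together. Gnat2, the highest of them, was at 0.197, 0.387, 0.172 and 0.538 CPM on AL, at 0.128, 0.187, 0.259 and 0.165 CPM on DR, and at 0.182, 0.257, 0.109 and 0.129 CPM on KD. Gna14 had 40 reads, Rgs14 had 60, Rgs22 had 44, Rgs18 had 22 and Rgs1 had 10. Gngt1 (the rod gamma subunit), Rgs13 and Rgs21 had 0 reads in all 12 libraries, which allows a level of up to 0.0735 to 0.0946 CPM in a library (3 reads, counting error only).

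Several silent members lie beside an expressed relative. Within 300 kb of each other, 11 pairs of members were found on the chromosomes, and in 10 of them no other protein-coding gene lies between the genes. Gnai1 (205 TPM) neighbours Gnat3 (1 read in all), Gnaq (132 TPM) neighbours Gna14 (0.0986 TPM), and Gnai2 (89.7 TPM) neighbours Gnat1 (0.0822 TPM) with Slc38a3 between them. Gna11 (64.7 TPM) and Gna15 (0.730 TPM), a Gq class gene of blood cells, are 4498 bases apart, Gnai3 (34.0 TPM) and Gnat2 (0.268 TPM) 5847 bases, and Gng11 (32.3 TPM) and Gngt1 (0 reads) 6467 bases. Gna13 (32.8 TPM) neighbours Rgs9 (0.865 TPM), a gene of the striatum and retina. Rgs5 (48.0 TPM) and Rgs4 (12.5 TPM) were the one pair with both genes above 10 TPM. In the cluster of Rgs13, Rgs1, Rgs21 and Rgs18 on chromosome 1, the highest gene, Rgs18, reached 0.0876 TPM.

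The 3 Gi genes among these neighbours, whose products inhibit adenylyl cyclases, were read library by library. Gnai1 was at 171, 177, 193 and 181 CPM on AL, at 176, 181, 191 and 176 CPM on DR, and at 172, 183, 182.5 and 181 CPM on KD. Gnai2 was at 97.8, 96.2, 96.3 and 96.8 CPM on AL, at 89.1, 96.25, 96.5 and 94.5 CPM on DR, and at 93.9, 96.05, 93.6 and 96.4 CPM on KD. Gnai3 was at 34.3, 34.0, 29.0 and 31.3 CPM on AL, at 31.65, 35.2, 26.9 and 29.25 CPM on DR, and at 29.6, 27.4, 32.45 and 32.7 CPM on KD. The diets overlapped for all 3 genes, and their log2 fold changes on DR against AL lay between -0.07 (SE 0.08) and 0.004 (SE 0.05).

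Gna11 was at 79.6, 73.6, 76.5 and 71.1 CPM on AL, at 78.1, 71.7, 73.25 and 75.9 CPM on DR, and at 71.7, 77.2, 72.0 and 73.6 CPM on KD. Gna13, of the G12/13 class, was at 62.5, 61.1, 58.8 and 60.7 CPM on AL, at 59.1, 59.7, 58.8 and 56.5 CPM on DR, and at 58.0, 57.9, 59.4 and 57.8 CPM on KD. Rgs4, an R4 gene of neurons, was at 10.9, 12.5, 10.1 and 12.2 CPM on AL, at 10.1, 10.6, 9.97 and 9.42 CPM on DR, and at 12.2, 11.5, 11.6 and 9.52 CPM on KD. Diets overlapped for Gna11, Gna13 and Rgs4, with log2 fold changes on DR against AL of -0.01 (SE 0.05), -0.05 (SE 0.04) and -0.19 (SE 0.09).

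Of the weakly expressed neighbours, Gna15 was at 0.271, 0.413, 0.459 and 0.760 CPM on AL, at 0.281, 0.405, 0.402 and 0.412 CPM on DR, and at 0.467, 0.456, 0.492 and 0.437 CPM on KD. Rgs9 was at 1.38, 1.47, 1.49 and 1.27 CPM on AL, at 1.63, 2.03, 1.98 and 1.54 CPM on DR, and at 1.40, 1.65, 1.07 and 1.70 CPM on KD, so that DR lay above AL and overlapped with KD. Gna14 had 14 reads in the AL, 13 in the DR and 13 in the KD libraries together, and Gnat1 had 9, 8 and 13. The single Gnat3 read came from KD. Rgs1 had 4 reads on AL, 6 on DR and 0 on KD, and Rgs18 had 10, 6 and 6. These untested genes had too few reads for the main tests, and at this depth a difference between diets could be missed.

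**Figure D2:**
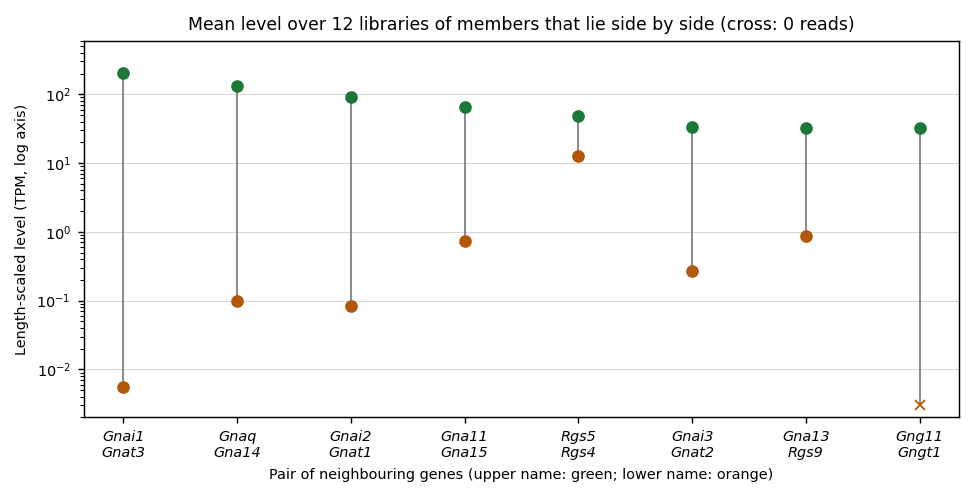
Mean length-scaled level over the 12 libraries (TPM, logarithmic axis) of the 8 pairs of neighbouring members in which one gene exceeded 1 TPM. Green dots are the higher and orange dots the lower gene of a pair, and the cross is Gngt1 with 0 reads; the lower gene stayed under 1 TPM in every pair but Rgs5 with Rgs4.

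RefSeq promoter sequences (GRCm38.p6) were matched for 38 of the 52 members, taking the start nearest to that of the gene. The 32 tested members had a median of 17.5 CpG dinucleotides in the 250 bases before the start (range 2 to 44), the 6 untested members had 3 (0 to 7), and the median over all 32851 promoters of the table was 6 (quartiles 2 and 16). Abundant members were not all rich in CpG, since Gng3 and Gng13 had 2 each and Gnb5 had 3. Sequence next to the start is given for 3 members that were called on DR and for the neighbours Gnaq and Gna14, with each CpG in capitals and bases inside annotated exons left out.
Gna12, chr5:140830432-140830581, minus strand: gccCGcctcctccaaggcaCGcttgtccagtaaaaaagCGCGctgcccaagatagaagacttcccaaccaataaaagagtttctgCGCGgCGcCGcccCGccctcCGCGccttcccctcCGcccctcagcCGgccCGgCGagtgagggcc
Gng7, chr10:81014946-81015075, minus strand: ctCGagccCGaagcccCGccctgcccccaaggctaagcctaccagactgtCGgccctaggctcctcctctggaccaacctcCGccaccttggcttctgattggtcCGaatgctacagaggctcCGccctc
Gng3, chr19:8839247-8839327, minus strand: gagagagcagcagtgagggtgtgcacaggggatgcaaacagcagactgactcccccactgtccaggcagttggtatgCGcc
Gnaq, chr19:16132534-16132683, plus strand: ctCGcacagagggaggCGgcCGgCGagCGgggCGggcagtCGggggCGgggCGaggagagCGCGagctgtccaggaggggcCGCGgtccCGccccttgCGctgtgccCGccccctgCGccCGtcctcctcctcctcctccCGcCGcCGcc
Gna14, chr19:16435517-16435666, plus strand: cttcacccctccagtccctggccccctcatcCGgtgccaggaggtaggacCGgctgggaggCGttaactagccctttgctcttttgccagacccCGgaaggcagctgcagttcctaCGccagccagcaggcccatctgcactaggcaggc
These stretches hold 15, 7, 1, 21 and 5 CpG. Of 4 motifs searched on both strands in the 250 bases, the GC box GGGCGG was in 18 of the 38 members (32.7% of all promoters), the TATA box TATAAA in 6 (12.4%), the E-box CACGTG in 4 (6.02%) and the cAMP response element TGACGTCA in 0 (1.55%). A match is a description of letters only, and Gna12, Gng7 and Gnaq held the GC box while Gng3 and Gna14 did not.

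The main comparison asked which members differed between DR and AL. Of the 41 tested members, 2 gamma subunit genes rose on DR (Gng7 and Gng3), and 1 alpha and 1 beta subunit gene fell (Gna12 and Gnb4). None of the 13 tested RGS members, which leave out Rgs2 and Rgs8, was called. The 4 calls are 9.76% of the tested members, whereas 3.06% of all 19052 genes tested were called in this comparison (1.32% higher and 1.74% lower on DR). All 4 changes were small and their adjusted p values lay just under 0.05.

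Gna12 (ENSMUSG00000000149.10, chromosome 5, 140758408 to 140830431 of GRCm38.p6, minus strand), whose product acts on the actin cytoskeleton, was at 44.8, 42.2, 46.1 and 42.9 CPM on AL and at 38.2, 38.9, 36.6 and 39.5 CPM on DR. On KD it was at 43.7, 43.1, 46.8 and 42.1 CPM. The 4 DR libraries lay below the 8 others. Gna12 fell by 12.9% on DR against AL, a log2 fold change of -0.20 (SE 0.05, adjusted p = 0.0425), and it was the one member that also differed between DR and KD (log2 fold change -0.20, SE 0.05, adjusted p = 0.0309). Between KD and AL its log2 fold change was -0.001 (SE 0.05). Exons of Amz1 on the opposite strand cover 13.4% of the Gna12 exonic bases; Amz1 averaged 4.61 CPM in AL libraries against 4.10 CPM in DR libraries and was not called (adjusted p = 0.466).

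Gnb4 (ENSMUSG00000027669.14, chromosome 3, 32580332 to 32616585, minus strand), a beta subunit, was at 35.1, 41.2, 37.0 and 36.7 CPM on AL and at 33.1, 30.2, 32.3 and 32.05 CPM on DR. On KD it was at 37.9, 32.8, 31.99 and 32.03 CPM. The DR libraries lay below the AL libraries, and 3 of the 4 KD libraries lay with DR. Gnb4 fell by 14.8% on DR against AL (log2 fold change -0.23, SE 0.06, adjusted p = 0.0438). Against AL the log2 fold change on KD was -0.15 (SE 0.06, adjusted p = 0.981), and that of DR against KD was -0.08 (SE 0.06, adjusted p = 0.55).

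Gng7 (ENSMUSG00000048240.14, chromosome 10, 80948624 to 81014945, minus strand), a gamma subunit known to pair with G alpha-olf in the striatum, was at 15.9, 15.9, 17.1 and 14.4 CPM on AL and at 18.1, 19.4, 20.2 and 19.7 CPM on DR. On KD it was at 16.2, 18.7, 16.6 and 16.3 CPM. The DR libraries lay above the AL libraries and, apart from KD library 2, above KD as well. Its log2 fold change on DR was 0.29 (SE 0.07, adjusted p = 0.0388), an increase of 22.0% and the largest of the 4. Against KD it was 0.19 (SE 0.07, adjusted p = 0.122).

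Gng3 (ENSMUSG00000071658.4, chromosome 19, 8836929 to 8839246, minus strand) was at 76.7, 76.1, 72.3 and 79.8 CPM on AL and at 89.8, 93.9, 80.7 and 86.4 CPM on DR. On KD it was at 78.8, 80.0, 73.3 and 86.6 CPM. The DR libraries lay above the AL libraries and overlapped with KD. Its log2 fold change on DR was 0.20 (SE 0.05, adjusted p = 0.0465), an increase of 15.1%, and against KD it was 0.14 (SE 0.06, adjusted p = 0.187). Exons of Bscl2 on the opposite strand cover 24.2% of its exonic bases; Bscl2 averaged 54.8 CPM in AL libraries against 56.5 CPM in DR libraries and was not called (adjusted p = 0.693).

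**Figure D3:**
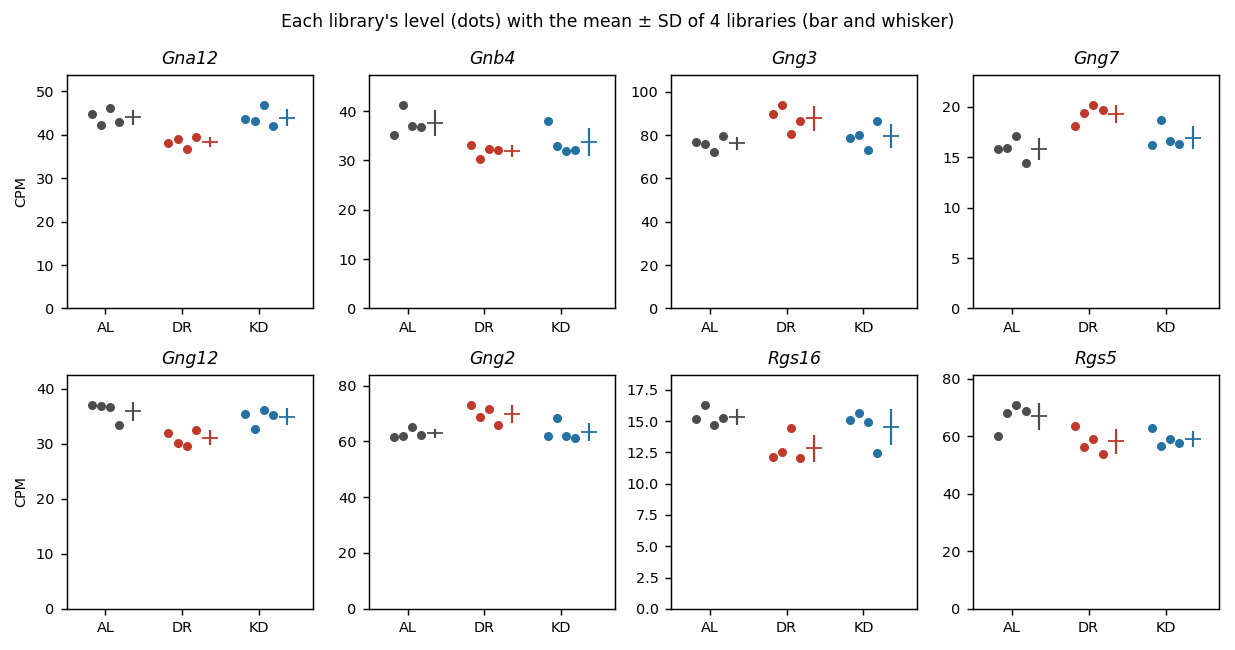
Levels (CPM, axes from 0) of 8 members in each of the 12 libraries. Dots are libraries and the bar with its whisker is the mean ± SD of 4; DR lay apart from AL for Gna12, Gnb4, Gng3, Gng7, Gng12, Gng2 and Rgs16, and overlapped with it for Rgs5.

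These 4 calls rested on all 8 libraries. With any 1 library left out, 0 to 1 of the 4 members remained called: none without AL library 1, 2 or 4 or DR library 2 or 4, Gng7 without AL library 3 or DR library 1, and Gng3 without DR library 3. The log2 fold changes moved little in these fits, from -0.22 to -0.18 for Gna12, from -0.26 to -0.18 for Gnb4, from 0.25 to 0.33 for Gng7 and from 0.17 to 0.24 for Gng3. Adjusted p values rose to at most 0.137 for Gna12, 0.136 for Gnb4, 0.117 for Gng7 and 0.118 for Gng3.

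**Figure D4:**
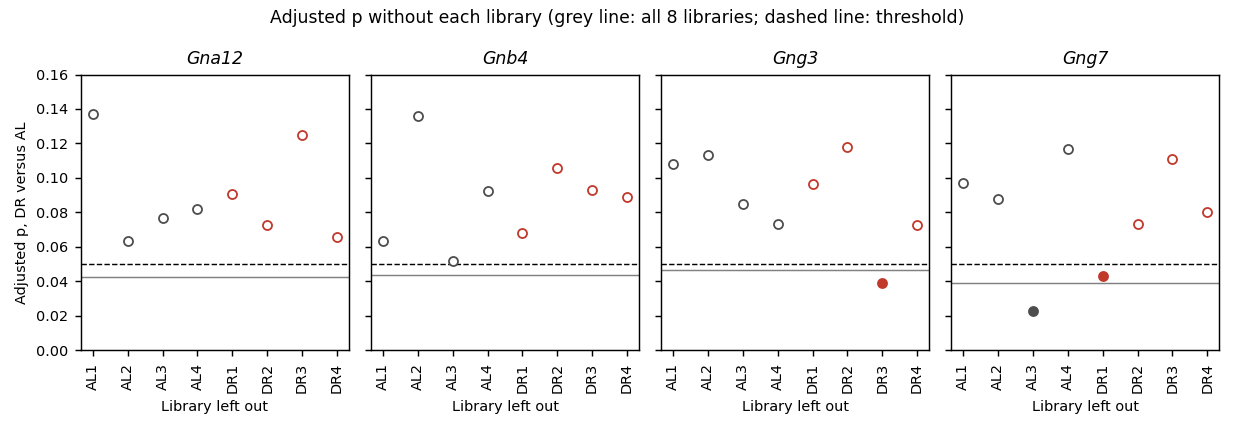
Adjusted p of DR versus AL for the 4 called members with each library left out in turn (dots, filled where under 0.05), beside the value with all 8 libraries (grey line) and the threshold of 0.05 (dashed line). Of the 32 dots, 3 lie under the threshold.

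The next members in order of p were not called. Gng12 was at 37.0, 36.8, 36.6 and 33.3 CPM on AL, at 32.05, 30.2, 29.6 and 32.5 CPM on DR and at 35.3, 32.7, 36.2 and 35.3 CPM on KD. Its DR libraries lay below the 8 others, with a log2 fold change of -0.21 (SE 0.06) and an adjusted p of 0.0546 against AL, and -0.17 (SE 0.05) and 0.0939 against KD. Gng2 was at 61.7, 61.9, 65.3 and 62.4 CPM on AL, at 72.9, 68.75, 71.6 and 65.8 CPM on DR and at 62.0, 68.3, 61.95 and 61.1 CPM on KD. All DR libraries of Gng2 exceeded those of AL, and the log2 fold change of 0.15 (SE 0.05) had an adjusted p of 0.0918. Exons of Gm48283, which had 2 reads in all, cover 20.4% of Gng2.

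Of the RGS genes, Rgs16, an R4 protein that acts on Gi/o and Gq, had the lowest p. It was at 15.15, 16.3, 14.7 and 15.3 CPM on AL, at 12.2, 12.6, 14.45 and 12.1 CPM on DR and at 15.1, 15.7, 14.96 and 12.45 CPM on KD. Rgs16 did not overlap between DR and AL, and its log2 fold change of -0.26 (SE 0.08) had an adjusted p of 0.0796. Rgs5 was at 60.0, 68.0, 70.7 and 68.9 CPM on AL and at 63.7, 56.2, 59.0 and 53.8 CPM on DR, which overlapped, with a log2 fold change of -0.20 (SE 0.06, adjusted p = 0.0948). None of the 9 markers of pericytes and smooth muscle was called on DR, and they summed to 92.2 to 101 CPM on AL and 85.6 to 98.7 CPM on DR.

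Over all 41 tested members, 31 had log2 fold changes below 0 and 10 above 0 on DR against AL, with a median of -0.07, beside a median of 0.004 over all genes tested. By class the medians were -0.05 for the 12 tested alpha genes, -0.001 for the 5 beta genes, -0.05 for the 11 gamma genes and -0.10 for the 13 RGS genes. The 4 tested members of the R4 subfamily (Rgs3, Rgs4, Rgs5 and Rgs16, with Rgs2 and Rgs8 left out) were all below 0, with a median of -0.20. At an unadjusted p under 0.05 there were 12 members, 4 higher and 8 lower on DR (9.76% and 19.5% of those tested), while 18% of all genes passed that mark, 9.02% higher and 8.98% lower. Libraries of DR and AL did not overlap for 10 members (24.4%), against 10.9% of all genes. Besides the genes above these included Gnaq and Gnal, lower on DR, and Rgs9, higher on DR (log2 fold change 0.35, SE 0.17, adjusted p = 0.283).

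Markers of several cell types moved with DR as well. The Purkinje cell marker Car8 was called lower, and the sum of the 9 Purkinje cell markers was 8376 to 9209 CPM on AL, 7387 to 8474 CPM on DR and 8350 to 8758 CPM on KD. Of the 6 markers of Bergmann glia and astrocytes, 2 were lower (Aqp4 and Hopx), with sums of 1803 to 1946 CPM on AL, 1604 to 1664 CPM on DR and 1764 to 1827 CPM on KD. Of the 5 markers of Golgi and unipolar brush cells, 1 (Lgi2) was higher. The 6 oligodendrocyte markers summed to 2055 to 2654 CPM on AL and 1931 to 2406 CPM on DR, and those of Golgi and unipolar brush cells to 259 to 279 CPM on AL and 295 to 316 CPM on DR. None of the 8 granule cell, 6 molecular layer interneuron, 3 oligodendrocyte precursor, 6 endothelial, 7 microglial or 5 blood markers was called, and no marker of the lists named here was at 0. Among genes that follow activity and time of day, 2 of 7 immediate early genes (Egr1 and Nr4a1) and 1 of 7 clock genes (Per2) were lower on DR. The part of these in the changes of the members was not tested.

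**Figure D5:**
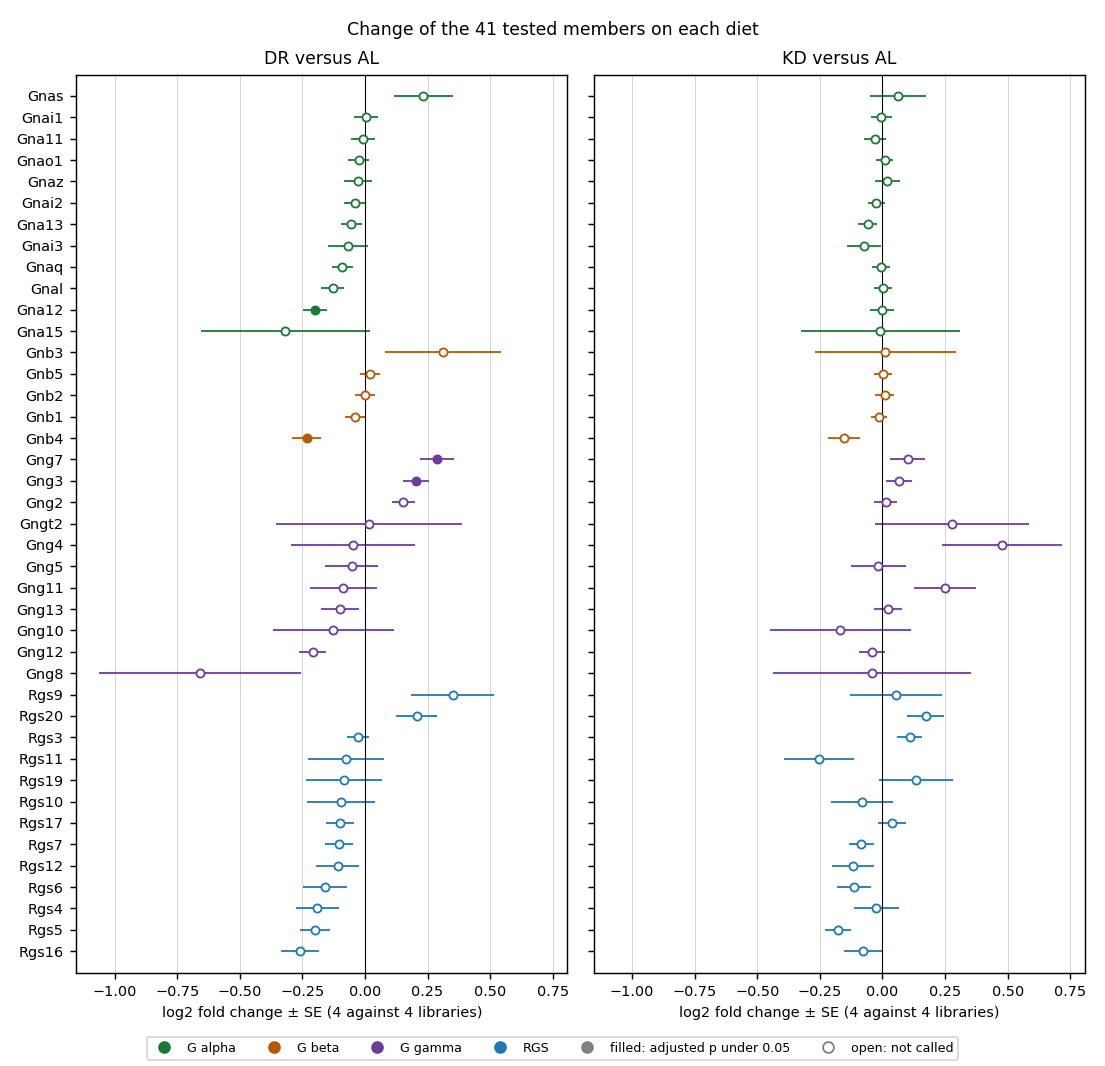
Log2 fold change with its standard error of the 41 tested members on DR (left) and KD (right) against the same 4 AL libraries, by class. Filled dots have an adjusted p under 0.05; on DR these are Gna12, Gnb4, Gng7 and Gng3, and on KD there are none.

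The comparison of KD with AL called no member. With edgeR's quasi-likelihood test 0 of all 19036 genes were called (0%), and with DESeq2 there were 10, with 0 members among them. Without adjustment, p lay under 0.05 for 928 genes (4.87%, with 2.39% higher and 2.48% lower on KD) and for 3 members. Rgs5 was lower, with 62.9, 56.7, 58.9 and 57.6 CPM on KD against the AL values above (log2 fold change -0.18, SE 0.05, adjusted p = 0.981). Rgs20, an RZ protein that acts on Gz, was at 11.1, 12.3, 11.4 and 13.55 CPM on AL, at 12.85, 13.7, 13.7 and 14.1 CPM on KD and at 13.8, 14.9, 12.6 and 14.4 CPM on DR, with a log2 fold change on KD of 0.17 (SE 0.08, adjusted p = 0.994). Gnb4 was the remaining one.

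The libraries of KD and AL overlapped for all 41 tested members, whereas 2.95% of all genes did not overlap. Signs were mixed, with 22 members below 0 and 19 above 0 and a median log2 fold change of -0.005. Rgs3 (71.9, 68.5, 75.7 and 69.6 CPM on AL, 70.95, 68.3, 68.9 and 72.2 CPM on DR, 73.4, 80.3, 71.85 and 82.1 CPM on KD) and Gng11 followed in order of p, at log2 fold changes of 0.11 (SE 0.05) and 0.25 (SE 0.12) and an adjusted p of 0.994 each. These comparisons share the AL libraries, so the DR and KD values of a member are not independent of each other.

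DR was therefore also set against KD directly. Of the 41 tested members only Gna12 was called, lower on DR, which is 2.44% of them, beside 4.94% of the 19087 genes tested (2.51% higher and 2.43% lower). The Gna12 call was lost without DR library 1 or 3 or KD library 1, 2 or 3, with adjusted p values up to 0.112. At an unadjusted p under 0.05 there were 3 members higher and 7 lower on DR, beside 18.7% of all genes (9.39% higher and 9.29% lower).

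Gng11, a gamma subunit with a farnesyl anchor, was second in order of p. It was at 7.76, 7.61, 6.52 and 8.32 CPM on DR, at 10.2, 8.33, 9.57 and 9.955 CPM on KD and at 8.18, 6.99, 6.54 and 10.48 CPM on AL. The highest DR library lay just under the lowest KD library, and the log2 fold change of -0.33 (SE 0.09) had an adjusted p of 0.0531. None of 6 endothelial markers was called here, and they summed to 168 to 171 CPM on DR and 174 to 184 CPM on KD. In all, 5 members did not overlap between DR and KD (Gna12, Gng11, Gng12, Gnal and Gna15, each lower on DR), or 12.2% against 11.8% of all genes. Gng2 (log2 fold change 0.14, SE 0.05, adjusted p = 0.121) and Gng7 came next. Of the markers, Car8 and 2 of 6 for Bergmann glia and astrocytes were called lower on DR than on KD too, as were the oligodendrocyte marker Mag and 3 of 7 immediate early genes. One granule cell marker was called higher (Cbln3) and 1 lower (Fat2), and Lgi2 of Golgi cells was higher. The part of these in the values of the members was not tested.

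The proteins that G proteins and RGS proteins work with were read from the same fits, as 42 listed partners of which 38 were tested: adenylyl cyclases, phospholipase C beta, G protein-gated potassium channels, receptor kinases, anchors and guanine nucleotide dissociation inhibitors. On DR against AL 1 of the 38 was called (2.63%), beside 3.06% of all genes tested. Rgs7bp, which anchors complexes of R7 RGS proteins with G beta-5 at the membrane, was at 411, 429, 412 and 421 CPM on AL, at 361, 380, 366 and 366 CPM on DR and at 409, 400.4, 425.6 and 392.3 CPM on KD. The DR libraries lay below the 8 others, and Rgs7bp fell by 11.9% against AL (log2 fold change -0.18, SE 0.04, adjusted p = 0.0243). Its call was lost without AL library 1, 2 or 4 or DR library 3 or 4 (adjusted p up to 0.0861). All 9 adenylyl cyclases had log2 fold changes below 0, from -0.16 to -0.03, and none was called.

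On DR against KD 3 of the 38 tested partners were called (7.89%), beside 4.94% of all genes tested. Gpsm1, which binds GDP-bound Gi alpha subunits, was at 180.5, 194, 191 and 173 CPM on DR and at 153, 160, 132 and 144 CPM on KD (log2 fold change 0.33, SE 0.06, adjusted p = 0.00341). Gpr158, a receptor that binds RGS7, was at 160.5, 166, 164 and 175 CPM on DR and at 200.4, 187.5, 201 and 189 CPM on KD (log2 fold change -0.22, SE 0.04, adjusted p = 0.00772). Both were called without each of the 8 libraries in turn. On AL Gpsm1 spread from 140.0 to 185 CPM and Gpr158 from 173 to 197 CPM, and neither was called on DR against AL (adjusted p = 0.17 and 0.0785).

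Adcy8, a calcium-stimulated adenylyl cyclase, was at 28.7, 34.55, 36.2 and 41.2 CPM on DR and at 42.3, 43.1, 46.3 and 43.8 CPM on KD (log2 fold change -0.32, SE 0.08, adjusted p = 0.0306). DR library 1 was the lowest, and the call was kept without DR library 4 (adjusted p = 0.00637) but lost without any other single library (0.0502 to 0.103). No partner was called on KD against AL, at 2 of 38 with an unadjusted p under 0.05 (5.26%, beside 4.87% of all genes tested).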

How the data were processed

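The authors trimmed paired-end poly(A) reads with Trimmomatic 0.39, aligned them to GRCm38.p6 with STAR 2.7.0f and counted reads per gene with featureCounts of Subread 1.6.4 on GENCODE vM20, and deposited raw counts for 54752 genes in 12 libraries. Symbols and gene types of 54723 genes came from GENCODE vM21. For each pair of diets the 8 libraries were filtered with filterByExpr (minimum count 10, total 15), scaled with TMM and tested with edgeR 4.0.16 (glmQLFit and glmQLFTest, no covariate, R 4.3.3), with Benjamini-Hochberg adjustment over all genes tested and calls at an adjusted p under 0.05. Fold changes are of the fit. Each SE is the absolute log2 fold change divided by the square root of the quasi-likelihood F statistic. Printed CPM use TMM factors over 12 libraries (0.988 to 1.02 in the fits). The procedure was tested on simulated counts whose planted changes were larger than those of the called members and partners. Its recovery of changes as small as these was not tested. Libraries carry numbers in accession order. AL and DR libraries are described as single mice; for KD this is not stated, and p-values measure the spread between libraries, which may be technical. Members, classes, partner and marker lists were chosen with earlier results of these data known, so no list is independent evidence. Values are given for members called in any comparison, the 5 lowest in p in each, the leading gene of each class, members with a neighbouring member and called partners; Rgs16 and Gng8 were added after their values were seen. Alternatives were DESeq2 1.42.0, other scalings and filters, 1 fit of all libraries and leaving out each library. Some marker genes are not reported here one by one.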

Additional observations from a re-analysis of the deposited data

Results flagged for a closer look

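Among 123 groups of 4 libraries (41 tested members on 3 diets), 7 held a library whose gap to the nearest other exceeded Dixon's critical value for 4 samples, or 5.69%, where chance gives about 5%. On KD, Gna13 was at 59.41 CPM in library 3 (57.83 to 58.04 CPM in the others), Gnb4 at 37.9 CPM in library 1 (31.99 to 32.83 CPM), Gng2 at 68.32 CPM in library 2 (61.07 to 61.96 CPM) and Gng7 at 18.68 CPM in library 2 (16.22 to 16.62 CPM). On DR, library 1 was low for Gna15 at 0.2807 CPM (0.4023 to 0.412 CPM) and for Rgs6, an R7 subfamily gene, at 14.75 CPM (18.76 to 19.55 CPM). On AL, Gng12 was at 33.34 CPM in library 4 (36.62 to 36.99 CPM). The gap of Gna13 spans little over 1 CPM, and the cause was not tested for any of the 7.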

How the results depend on the processing

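On DR against AL, 4 members were called, beside 7 with DESeq2 (Gng12, Rgs16 and Rgs5 in addition), 2 with library size only (Gng3 and Gng7) and 0 to 1 with a library left out; partners were 1, beside 2 with DESeq2, 4 without the low-count filter, 2 with 1 fit of 12 libraries and 0 to 2 with a library left out. On DR against KD, 1 member was called, beside 2 with DESeq2, 2 with RLE size factors, 2 without the low-count filter (Gng11 in addition in each) and 0 to 2 with a library left out, while partners stayed at 3 to 4 under the other settings and at 2 to 3 with a library left out. On KD against AL, members and partners were at 0 throughout. Over all genes, DR against AL gave 583 calls, 1012 with DESeq2, 1258 without the filter and 235 to 712 with a library left out; DR against KD gave 942, 1503 without the filter and 467 to 946 with a library left out; KD against AL gave 0, 10 with DESeq2, 118 without the filter and 0 to 6 with a library left out. Of the alternatives for single genes, 207 kept their side of the threshold, 9 passed it, 48 no longer did and none changed sign. Among the 207 are alternatives on KD against AL, where no member was called in any setting. On DR against AL, Gna12 and Gnb4 were each called in 5 of 6 other settings and in 0 of 8 fits with a library left out. Gng7 and Gng3 were called in 6 of 6 other settings and in 2 and 1 of 8 such fits. Gng11 was not tested with the filter of a mean above 10 CPM. The causes were not tested. No paired analysis was possible because the labels give no shared replicate numbers. Depth limits the 11 untested members and members near 1 CPM, such as Gng8, whose log2 fold change on DR of -0.66 had an SE of 0.41.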
